A study of Homo sapiens with 3 samples.

Results

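The genes described here are 10 genes of fibroblast growth factor (FGF) signalling in PANC-1 cells: the ligands FGF1, FGF2, FGF5 and FGF18, the carrier protein FGFBP1, the receptors FGFR1, FGFR2, FGFR3 and FGFR4, and the receptor-like protein FGFRL1. They were chosen by symbol from the 19699 genes that could be named on the arrays. PANC-1 is an established human pancreatic cancer line and was cultured in medium with serum, so the data describe 1 line. The study compared 3 groups of these cells, with 1 array of total RNA in each: untreated control cells, cells given 20 µM cantharidin for 24 h, and cells given 20 µM okadaic acid (OA) for 24 h. Both agents inhibit protein phosphatase 2A (PP2A), which removes phosphate groups from many kinases, and the comparison asks which transcripts differ after either agent. All arrays were on 1 slide, so position on the slide and group cannot be told apart. With 1 array per group no difference has a replicate check and no p-value can be given, and both agents were compared with the same control array.

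FGF ligands are secreted proteins that bind receptor tyrosine kinases together with heparan sulfate chains on the cell surface. The bound receptors pair, phosphorylate each other and the docking protein FRS2, and pass the signal to the RAS-ERK, PI3K and PLCγ pathways, while Sprouty proteins and the phosphatase DUSP6 act as feedback inhibitors. FGF1 binds all of the signalling receptors, FGFBP1 releases FGFs stored in the matrix, and FGFRL1 binds ligand but lacks a kinase domain. The family is known for driving growth of blood vessels and of epithelial cells, and in pancreatic tumours for exchange between cancer cells and stroma.

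Levels are given as array intensity, the background-subtracted brightness of a probe's spot, and comparisons as log2 differences between arrays brought to a common 75th percentile. A gene was called when it differed by at least 1.5-fold. The scanner software flags each spot that is well above background. The lowest such signal of an array is called its floor here. A spot without this flag has only an upper limit, taken as its own signal or the floor, whichever is higher, and folds against it are lower bounds, written "at least". The error beside a difference is the SD expected from spot noise alone at that brightness, measured on probes printed in 10 spots. Each of the 17 FGF probes had 1 spot. Spot noise covers neither culture nor hybridisation.

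By the brightest probe of each gene, FGF1, FGF5 and FGFR3 were higher with OA than in the control, by 8.74-fold, 2.48-fold and 3.13-fold. FGFRL1 was 4.26-fold lower with OA and FGFR4 was at least 1.98-fold lower. Other probes with OA gave 2.27-fold higher for FGF1, 1.24-fold higher for FGFR3 and no call for FGF5. With cantharidin, again by the brightest probes, FGF1 was 1.91-fold higher, FGFRL1 was 2.41-fold lower and FGFR4 was 1.74-fold lower. FGFR1 and FGFR2 differed by no more than 1.12-fold with either agent by their brighter probes. FGF1 is among the angiogenesis genes that the study picked on these same arrays, so its direction is not independent evidence.

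The stretches just before the transcription starts of the 4 FGF genes with the largest differences measured on both arrays are shown because the series title names the transcription factor Sp1 and the kinase JNK, which acts on AP-1. Each is the 250 bases that end at the base before a RefSeq start on GRCh38.p14, written 5′ to 3′ along the gene. Capitals mark GC boxes (GGGCGG, the letters Sp1 is known to bind), AP-1 sites (TGANTCA) and TATA boxes (TATAAA), searched on both strands, so that CCGCCC is a GC box on the opposite strand. For FGF1, which has 4 starts in the table, the start with an AP-1 match is shown. For FGF5, which has 2, the start shown is the one with a GC box.
FGF1, chr5:142644240-142644489, minus strand: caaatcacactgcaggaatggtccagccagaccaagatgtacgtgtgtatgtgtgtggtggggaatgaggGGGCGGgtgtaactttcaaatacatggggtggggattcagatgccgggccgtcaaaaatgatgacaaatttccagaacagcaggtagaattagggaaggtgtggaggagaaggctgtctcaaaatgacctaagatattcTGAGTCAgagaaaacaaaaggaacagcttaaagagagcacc
FGF5, chr4:80266338-80266587, plus strand: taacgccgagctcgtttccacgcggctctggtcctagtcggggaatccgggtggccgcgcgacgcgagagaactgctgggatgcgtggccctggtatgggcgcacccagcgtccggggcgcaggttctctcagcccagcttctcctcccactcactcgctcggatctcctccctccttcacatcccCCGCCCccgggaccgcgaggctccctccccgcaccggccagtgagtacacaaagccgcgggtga
FGFR3, chr4:1793043-1793292, plus strand: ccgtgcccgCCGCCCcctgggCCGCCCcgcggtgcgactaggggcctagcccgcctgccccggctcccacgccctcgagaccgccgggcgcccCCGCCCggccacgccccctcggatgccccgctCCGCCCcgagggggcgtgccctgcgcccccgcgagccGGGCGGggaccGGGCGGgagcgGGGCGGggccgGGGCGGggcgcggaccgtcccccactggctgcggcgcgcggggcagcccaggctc
FGFRL1, chr4:1012214-1012463, plus strand: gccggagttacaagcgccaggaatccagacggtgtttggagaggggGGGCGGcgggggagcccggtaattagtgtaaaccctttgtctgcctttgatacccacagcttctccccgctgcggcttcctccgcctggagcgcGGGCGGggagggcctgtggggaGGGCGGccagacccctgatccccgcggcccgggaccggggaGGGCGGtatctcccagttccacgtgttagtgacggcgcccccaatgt
The search covered 18 such stretches for 9 of the 10 genes. FGFR1 was not among the genes searched, so nothing is said of the stretch before it. A GC box was found in 10 of the 18. Of the 35116 stretches of this length that were searched, 42.6% held one. The FGFR3 stretch held 8 GC boxes and was 86.8% G and C, and the FGFRL1 stretch held 4. An AP-1 match was found in 1 of the 18 stretches, that of FGF1 shown above, where its first base lies 41 bases before the start. Of the 35116 stretches searched, 6.60% held one. A TATA match was found in 1 of the 18, before the other FGF5 start, against 10.7% of the 35116. A match in these letters is a description and shows no binding.

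**Figure D1:**
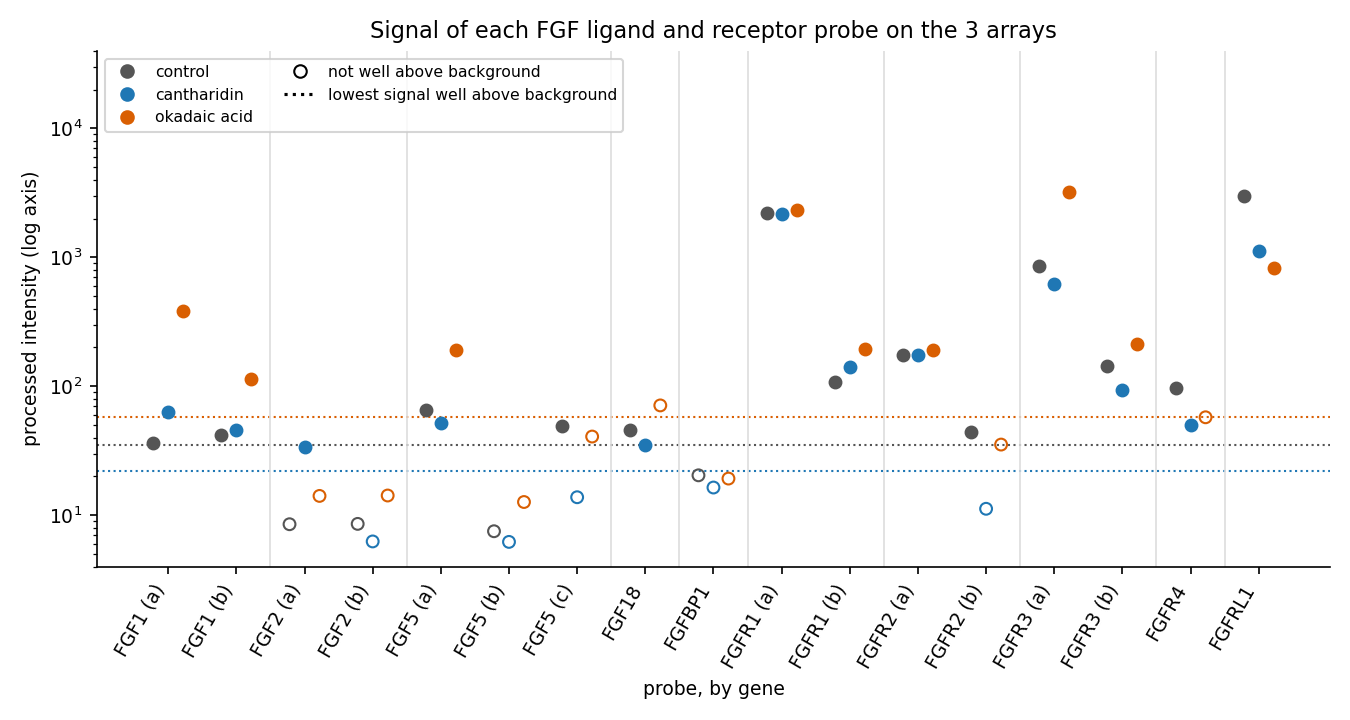
Processed intensity (log axis) of the 17 probes of the FGF ligand and receptor genes on the control, cantharidin and OA arrays. Letters tell the probes of 1 gene apart, filled points were well above background, open points were not, and each dotted line is the floor of the array of its colour. FGF1, FGF5 (a) and FGFR3 (a) had their highest points on the OA array, FGFRL1 had its lowest there, and FGFBP1 has open points only.

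Among FGF1, FGF2, FGF5 and FGF18, FGF1 differed most. Its brighter probe (A_23_P213336) read 36.6 in the control, 63.5 with cantharidin and 382 with OA. The control signal was 1.04 times the floor of its array, so the gene was barely detected before treatment, while the OA signal was 6.57 times its own floor. The difference from control was 3.13 ± 0.43 (spot SD) on the log2 scale with OA, 8.74-fold, and 0.93 ± 0.50 with cantharidin, 1.91-fold, which is less than 2 spot SDs. OA was 4.57-fold above cantharidin. The other FGF1 probe, matched to the same transcript record, read 42.1 in the control, 46.0 with cantharidin and 114 with OA. It showed the same order with smaller differences, 2.27-fold for OA and 1.20-fold for cantharidin, and the gap between the probes for OA was 1.94 ± 0.56 (spot SD) on the log2 scale. With the normexp background correction, which here starts from the median spot signal and adds an offset of 50, the FGF1 difference with cantharidin was 0.20, below the threshold, and that with OA was 1.57. The OA difference passed 1.5-fold under all 12 alternatives, although the threshold, filter and dim-signal settings among them could not move it.

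FGF5, a ligand known for ending the growth phase of hair follicles, was called higher with OA. Its brightest probe (A_23_P212800) read 65.1 in the control, 51.6 with cantharidin and 193 with OA. The cantharidin array was the lowest and the OA array the highest. The signal was 1.86 times the floor in the control and 2.36 times the floor with cantharidin, so both were dim. OA was 2.48-fold above the control (log2 1.31 ± 0.31, spot SD) and 2.85-fold above cantharidin (1.51 ± 0.33), and cantharidin was 1.15-fold below the control (-0.20 ± 0.39), within the spot noise. A probe matched to another FGF5 transcript record behaved differently, at 48.8 in the control, 13.8 with cantharidin and 40.8 with OA. It was well above background in the control alone, so it was at least 2.03-fold lower with cantharidin, and its bound with OA did not reach the threshold. The remaining FGF5 probe was below this mark throughout. Under the normexp correction the brightest probe gave 0.65 for OA against control and 0.72 for OA against cantharidin. Both were smaller but still past the threshold. With the median over the detected FGF5 probes in place of the brightest, the value was -0.61 with cantharidin, past the threshold, and 0.65 with OA. Each of these medians mixes a measured difference with a bound, so neither is a measured difference.

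FGF2, the basic FGF of blood vessel growth, was near background throughout. Its brighter probe read 8.52 in the control, 34.1 with cantharidin and 14.1 with OA, and was well above background on the cantharidin array alone. The floor of the control array lies close to that value, so the bound was at least 1.07-fold higher, which is not a call. Taken at their measured values, the signals of this probe differed by 2.14 on the log2 scale between cantharidin and control. The other FGF2 probe was never well above background, with signals of 8.57 in the control, 6.26 with cantharidin and 14.2 with OA.

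FGF18, a ligand of cartilage and bone growth, read 45.6 in the control, 35.3 with cantharidin and 71.1 with OA. Cantharidin was 1.17-fold below the control (log2 -0.23 ± 0.39, spot SD), within the spot noise. On the OA array the probe was not well above background although its signal was above the floor, and no fold is given. FGFBP1, the carrier protein, read 20.4, 16.4 and 19.2 and was well above background on none of them, so nothing can be said of a change in it.

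FGFR3 was the only receptor gene called higher, and with OA alone. Its brighter probe (A_23_P500501) read 863 in the control, 625 with cantharidin and 3220 with OA. The OA array stood far above the other arrays, and cantharidin was slightly the lowest. OA was 3.13-fold above the control (log2 1.64 ± 0.11, spot SD) and 3.92-fold above cantharidin (1.97 ± 0.14), while cantharidin was 1.26-fold below the control (-0.33 ± 0.13), short of the threshold. The other FGFR3 probe, matched to the same transcript record, read 143 in the control, 94.3 with cantharidin and 212 with OA. It kept the same order of the arrays, but OA was 1.24-fold above the control and 1.71-fold above cantharidin. The gap between the probes for OA against control, 1.33 ± 0.25 (spot SD) on the log2 scale, was larger than spot noise gives. The size of the FGFR3 difference thus rests on which probe is read, and its order across arrays does not.

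FGFR1 did not reach the threshold by its brighter probe, which read 2191 in the control, 2182 with cantharidin and 2335 with OA. After scaling, cantharidin was 1.1-fold above the control (log2 0.13 ± 0.13, spot SD) and OA was 1.12-fold below it (-0.16 ± 0.10). These signs depend on scaling. Over the other scalings and background corrections the log2 difference lay between -0.01 and 0.23 for cantharidin and between -0.28 and 0.09 for OA. The dimmer FGFR1 probe, matched to another transcript record, read 108 in the control, 140 with cantharidin and 193 with OA. It was higher by 0.52 on the log2 scale with cantharidin, short of the threshold, and by 0.59 with OA, just at it.

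FGFR2, which is spliced into epithelial and mesenchymal forms, read 175 in the control, 173 with cantharidin and 190 with OA by its brighter probe. The arrays were nearly level, with cantharidin 1.09-fold above the control and OA 1.1-fold below it. Neither difference reached 1 spot SD, and both signs changed in some scalings. The dimmer FGFR2 probe read 44.6 in the control, where alone it was well above background, 11.2 with cantharidin and 35.3 with OA. That probe was at least 1.85-fold lower with cantharidin and had no usable bound with OA. Both probes were matched to the same transcript record. Their positions in it were not available, so which splice forms each probe reads was not determined.

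FGFR4 was lower with both agents. Its probe (A_23_P92754) read 96.3 in the control, 50.4 with cantharidin and 57.5 with OA, where it was not well above background. Cantharidin was 1.74-fold below the control (log2 -0.80 ± 0.33, spot SD) and OA was at least 1.98-fold below it. Between the agents the bound was 1.14-fold, so their order is not resolved. With the normexp correction the differences were -0.30 for cantharidin and -0.47 for the OA bound, and neither was called.

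FGFRL1, the receptor-like protein without a kinase domain, had the largest differences from control relative to spot noise among the 10 genes. It has 1 probe with 1 spot, so no other probe checks it. Where a gene had another probe measured on both arrays, the probes differed for OA against control by 1.94 (FGF1), 1.33 (FGFR3) and -0.75 (FGFR1) on the log2 scale. For FGF5, the brightest probe gave 1.31, while another probe, detected in the control alone, gave a bound of -0.01. The FGFRL1 probe (A_23_P92349) read 2967 in the control, 1116 with cantharidin and 832 with OA. Every array was at least 14.3 times above its floor. Cantharidin was 2.41-fold below the control (log2 -1.27 ± 0.13, spot SD) and OA was 4.26-fold below it (-2.09 ± 0.09). Over the 12 alternatives the difference stayed between -1.41 and -1.13 for cantharidin and between -2.21 and -1.83 for OA. Only the other scalings, the background correction and the deposited table could move it. The remaining alternatives leave a lone probe well above background unchanged. OA was also 1.76-fold below cantharidin (-0.82 ± 0.14), but without scaling between arrays this difference was -0.42, below the threshold.

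**Figure D2:**
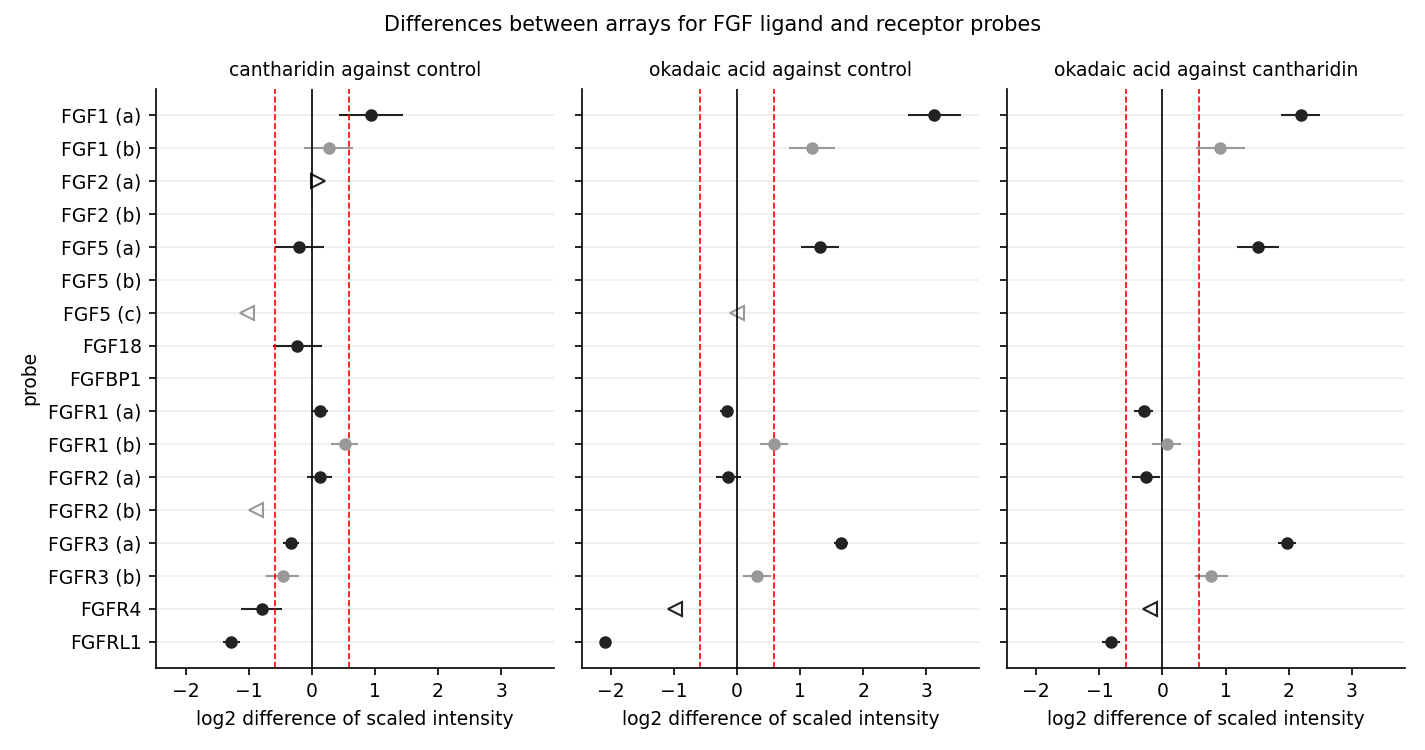
Log2 differences of scaled intensity for the 17 probes of the FGF ligand and receptor genes, in 3 panels for cantharidin against control, OA against control and OA against cantharidin. Black points are the brightest probe of a gene and grey points the others, bars are 1 spot SD, open triangles are bounds pointing away from 0, red dashed lines mark 1.5-fold, and rows without a mark had no fold. With OA, FGF1 (a) lies at 3.13 and FGFRL1 at -2.09, while FGFR1 (a) and FGFR2 (a) lie within the dashed lines in every panel.

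Counted by gene, 9 of the 10 could be compared between cantharidin and control, and 1 was higher and 2 lower. A gene counts as compared if either array flagged it as well above background, also where no fold could be given. Among all 16644 genes compared, 26.3% were called higher and 34.0% lower. Between OA and control, 8 were compared, of which 7 had a fold or bound and FGF18 had none, and 3 were higher and 2 lower, against 28.0% and 27.0% of 16166 genes. Between OA and cantharidin, 9 were compared, of which 7 had a fold or bound and FGF2 and FGF18 had none, and 3 were higher and 1 lower, against 29.4% and 20.5% of 16200 genes. With at most 9 genes compared, nothing particular to the FGF genes is read from these counts. The median log2 difference of the FGF genes measured on both arrays was -0.21 for cantharidin (8 genes), against -0.17 over all genes. It was 0.59 for OA (6 genes) against 0.05 over all genes, and 0.62 for OA against cantharidin (6 genes) against 0.17. The genes measured on both arrays passed the filter on dim signals and leave out FGF2 and FGFBP1 in every comparison and FGF18 and FGFR4 wherever OA enters.

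Counted by probe, 1 was higher and 4 lower of 14 with cantharidin, where 24.7% and 33.0% of all probes were. With OA, 5 were higher and 2 lower of 13, against 26.4% and 25.1% of all probes. Between OA and cantharidin, 5 were higher and 1 lower of 12, against 27.9% and 19.8%. Detection differed between the arrays. Of the 17 FGF probes, 13 were well above background in the control, 12 with cantharidin and 9 with OA, that is 76.5%, 70.6% and 52.9%, while the shares of all probes were 72.8%, 73.7% and 67.8%. The floor was 35.0 in the control, 21.9 with cantharidin and 58.0 with OA, so a dim probe was harder to detect on the OA array. In a lysate of many cells, fewer cells with a transcript and less of it per cell cannot be told apart.

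**Figure D3:**
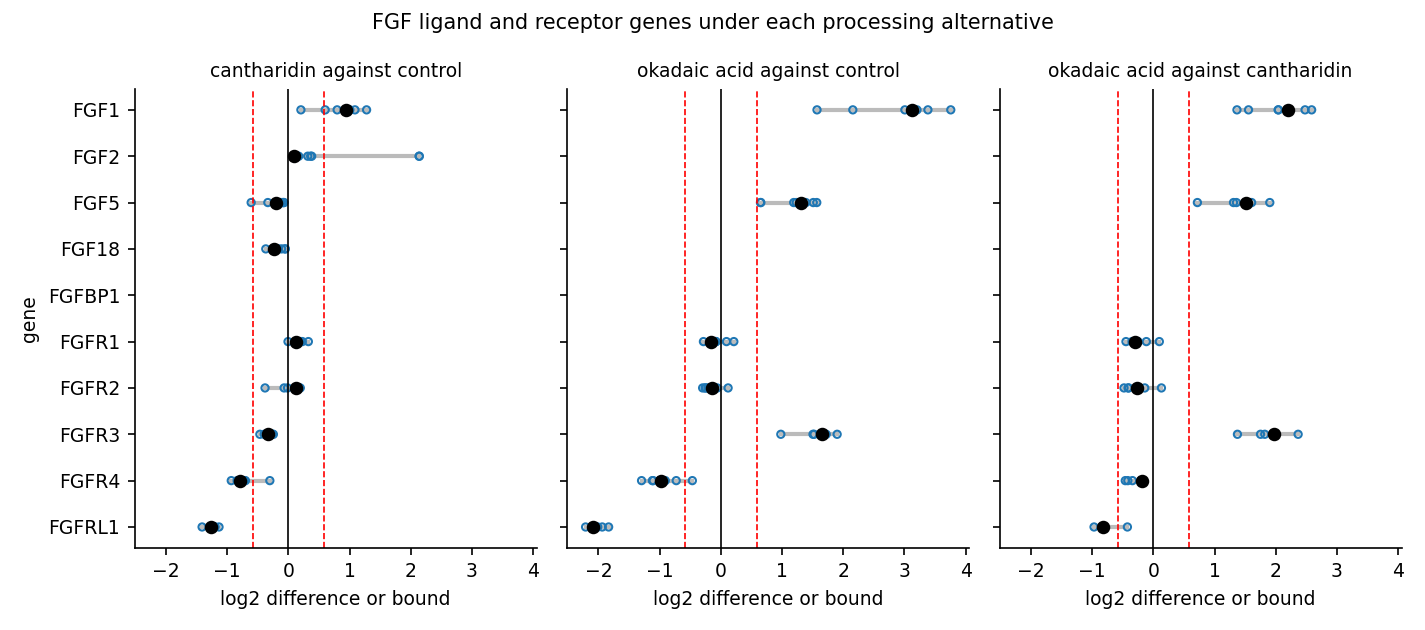
Log2 difference, or bound, of each FGF gene under the processing used (black points) and under the alternatives (blue circles, with a grey line over their range), in 1 panel per comparison, with red dashed lines at 1.5-fold. FGFRL1 stayed below the lower line against control in all 12 alternatives, some of which cannot move it. FGF1 with OA ranged from 1.57 to 3.76, and FGF1 with cantharidin ranged from 0.20 to 1.28. FGFBP1 has no value, and FGF2 and FGF18 have none where OA enters.

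The genes whose pattern was most like that of FGF1 over the 3 arrays were TCP10L and the homeobox gene LHX1, by Euclidean distance in the 2 log2 differences from control. TCP10L had differences of 0.98 with cantharidin and 3.06 with OA, a distance of 0.08, and LHX1 had 1.04 and 3.04, a distance of 0.14. Of 14222 genes measured on all arrays, 13 lay within 0.25 of FGF1 in both differences. This ranking used the brighter FGF1 probe, whose differences had spot SDs of 0.50 and 0.43. Both SDs are larger than these distances and the window of 0.25. The other FGF1 probe lay elsewhere, at 0.27 with cantharidin and 1.18 with OA. Which genes come nearest thus depends on spot noise and on the probe read.

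Of the 14 other secreted FGF ligands, 10 could be compared between cantharidin and control, with 3 higher and 2 lower, beside 26.3% and 34.0% of all genes. With OA, 9 could be compared, with 2 higher and 1 lower, beside 28.0% and 27.0%. FGF21, a metabolic hormone, read 49.5 in the control, 96.0 with cantharidin and 123 with OA, and was 2.14-fold and 2.09-fold higher. FGF4, a ligand of early embryos, read 245, 95.3 and 174, and was 2.34-fold lower with cantharidin and 1.68-fold lower with OA. FGF16 was 1.52-fold higher with OA (log2 0.60 ± 0.31, spot SD), which is less than 2 spot SDs. With cantharidin it was -0.48 ± 0.39 on the log2 scale. FGF9 was 1.63-fold higher with cantharidin by its gene-level probe (log2 0.70 ± 0.33, spot SD). Its other probe gave -1.43, so its direction is uncertain. FGF7, the keratinocyte growth factor that acts on epithelial FGFR2, is named after its values were seen: 1 of its 2 probes read 43.3 in the control, 734 with cantharidin and 16.7 with OA. It was well above background with cantharidin alone, at least 18.6-fold above the control and at least 16.6-fold above OA, while the other FGF7 probe was never well above background. FGF11, an FGF homologous factor that stays inside the cell, read 105 in the control, 207 with cantharidin and 620 with OA. It was 2.18-fold and 4.96-fold higher than the control, and it was the only homologous factor that could be compared.

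FGF-binding proteins and co-receptors differed in both directions. Of 18 genes, 14 could be compared with cantharidin, of which 2 were higher and 9 lower, beside 26.3% and 34.0% of all genes. With OA 13 were compared, of which 11 had a fold or bound, 2 were higher and 7 lower, beside 28.0% and 27.0%. The median log2 differences over the genes measured on both arrays, 9 in each comparison, were -1.65 and -0.78, against -0.17 and 0.05 over all genes. FGFBP3, a carrier related to FGFBP1, read 272 in the control, 35.6 with cantharidin and 207 with OA, so that it was 6.95-fold and 1.57-fold lower. SDC1, an epithelial syndecan that carries heparan sulfate, read 4607, 764 and 2393, and was 5.48-fold and 2.30-fold lower. SDC4, another syndecan, went the other way, at 2141 in the control, 6362 with cantharidin and 9163 with OA, or 3.27-fold and 3.59-fold higher. HSPG2, the matrix proteoglycan perlecan, was 3.98-fold and 2.32-fold lower by its brightest probe, but among its 4 probes the log2 difference reached 0.54 with cantharidin and 0.95 with OA. Probes also disagreed in direction for SDC3 with OA, where the dimmer probe gave 0.40, and for GPC3 with cantharidin, where it gave 0.35.

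Of 10 enzymes that build or trim heparan sulfate, 9 could be compared with each agent, with 3 higher and 4 lower each time. Among all genes 26.3% were higher and 34.0% lower with cantharidin, and 28.0% and 27.0% with OA. EXT1 and EXT2, which together extend the chain, went opposite ways. EXT1 read 1133 in the control, 4257 with cantharidin and 2394 with OA, and was 4.13-fold and 1.77-fold higher. EXT2 read 5600, 1349 and 2279, and was 3.77-fold and 2.93-fold lower. The epimerase GLCE was 2.99-fold and 1.98-fold lower, and the sulfotransferase HS6ST2 was 3.49-fold and 2.20-fold lower. HS2ST1, counted as higher with OA at 0.97 on the log2 scale, had another probe at -1.58, so its direction is uncertain.

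Of 10 receptor adaptors, 9 could be compared with cantharidin, with 3 higher and 2 lower, and 8 with OA, with 3 higher and 3 lower. The shares of all genes were 26.3% and 34.0% with cantharidin and 28.0% and 27.0% with OA. FRS2, the docking protein of the receptors, read 127 in the control, 310 with cantharidin and 365 with OA, and was 2.70-fold and 2.42-fold higher. CBL, a ubiquitin ligase that sends activated receptors for degradation, was 5.60-fold higher with cantharidin and 1.82-fold higher with OA. CRKL was 2.86-fold higher with OA and 0.28 on the log2 scale with cantharidin. SHC1 was 1.70-fold and 2.95-fold lower.

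Feedback regulators and ETS targets of FGF signalling were all measured on all arrays. With cantharidin 4 of 10 were higher and 5 lower, beside 26.3% and 34.0% of all genes. With OA 3 were higher and 3 lower, near the 28.0% and 27.0% of all genes. DUSP6, which removes phosphate from ERK, read 3533 in the control, 14923 with cantharidin and 16731 with OA, and was 4.65-fold and 3.97-fold higher. SPRY1, a Sprouty inhibitor, read 942, 160 and 972, and was 5.36-fold lower with cantharidin and -0.21 on the log2 scale with OA. ETV5, an ETS transcription factor downstream of ERK, was 3.74-fold higher with cantharidin and 0.34 on the log2 scale with OA. IL17RD, an inhibitor of FGF receptor signalling, was 3.14-fold and 3.02-fold lower. SPRY4, counted as higher with cantharidin at 1.17 on the log2 scale, had another probe at -0.24. SPRY2, named after its values were seen, was the only gene in these lists past 1.5-fold in opposite directions, at 6424 in the control, 1935 with cantharidin and 14919 with OA, or 3.02-fold lower and 1.95-fold higher.

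Regulators of FGFR2 splicing could all be compared. With cantharidin 1 of 4 was higher and 3 lower, beside 26.3% and 34.0% of all genes. With OA 0 were higher and 2 lower, beside 28.0% and 27.0%. ESRP1, an epithelial splicing factor named after its values were seen, read 96.1 in the control and was not well above background on either treated array, so it was at least 3.11-fold lower with cantharidin and at least 1.98-fold lower with OA. ESRP2, the other epithelial factor, was 1.61-fold lower with cantharidin and 0.01 on the log2 scale with OA. PTBP1 was 1.68-fold and 1.72-fold lower, and RBFOX2 was 1.81-fold higher with cantharidin and 0.51 on the log2 scale with OA.

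**Figure D4:**
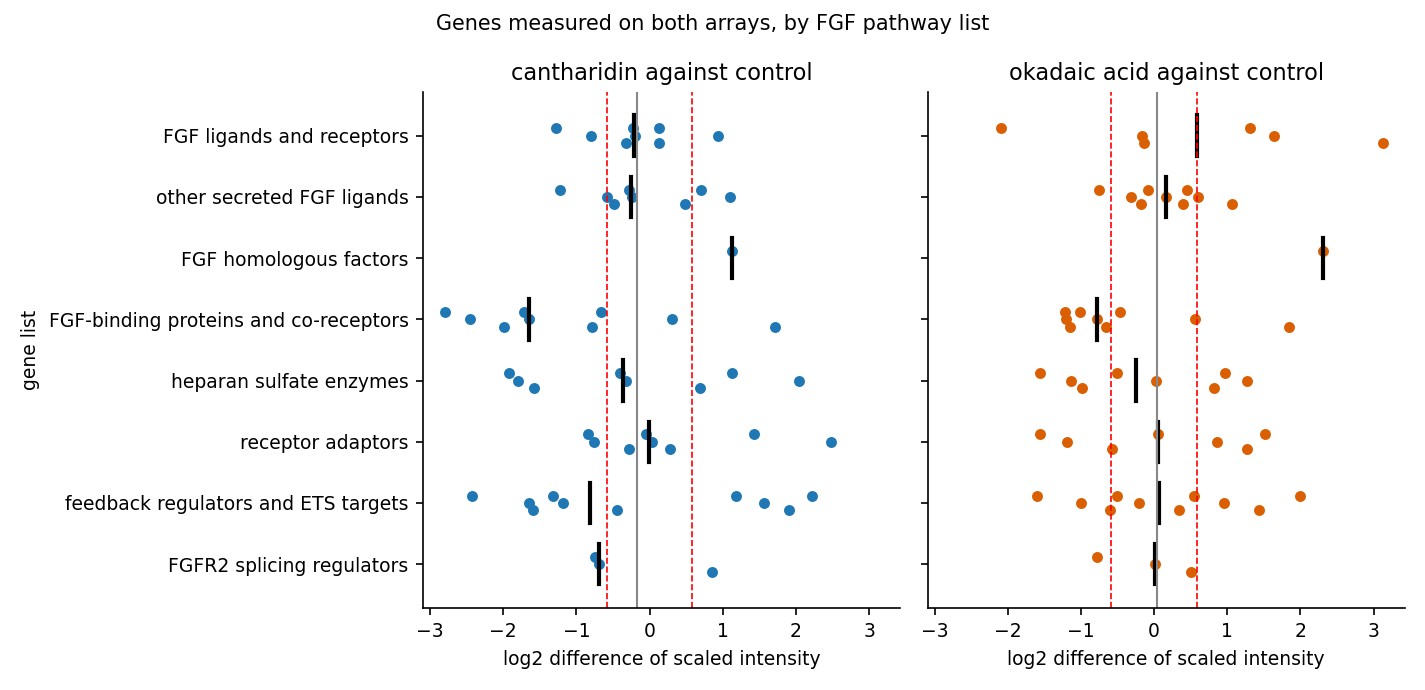
Log2 differences of scaled intensity for the genes measured on both arrays, by list, for cantharidin against control and OA against control. Each point is a gene, black bars are list medians, the grey line is the median of all genes, and red dashed lines mark 1.5-fold. The FGF-binding proteins and co-receptors had medians of -1.65 and -0.78, and the FGF ligands and receptors had medians of -0.21 and 0.59.

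Marker genes of the cells were checked on the same arrays. All 5 epithelial and ductal markers were well above background on every array. EPCAM was 3.42-fold and 2.20-fold lower with cantharidin and OA, and KRT18 was 1.99-fold and 2.29-fold higher. KRT8 was 2.25-fold lower with cantharidin. With OA it was -0.22 on the log2 scale by its brighter probe and -1.08 by the other. KRT19 was 2.59-fold higher and KRT7 was 1.67-fold lower with OA, and neither was called with cantharidin. Of the mesenchymal markers, VIM and CDH2 were well above background on every array and FN1 on none. CDH2 read 5023 in the control, 328 with cantharidin and 1195 with OA, or 13.9-fold and 5.02-fold lower, while VIM was 1.07-fold above the control with cantharidin and 1.57-fold lower with OA.

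Markers of other cell types were partly detected. The endothelial PECAM1 and TEK and the fibroblast LUM and COL1A2 had signals below that mark on all arrays, whereas CDH5 and VWF, DCN and all 4 leukocyte markers passed it on all arrays. The other fibroblast markers went opposite ways. COL1A1 read 528 in the control and was at least 21.9-fold lower with cantharidin and at least 10.9-fold lower with OA. PDGFRB read 17.5 in the control, 375 with cantharidin and 36.8 with OA, and was well above background with cantharidin alone, as FGF7 was, at least 11.8-fold above the control. The summed scaled signal of the 5 fibroblast markers, in units of each array's 75th percentile, was 0.846 in the control, 0.637 with cantharidin and 0.193 with OA, and it mixes these opposite differences. That of the 4 leukocyte markers was 4.22, 3.57 and 12.9, the same order as for FGFR3, and CD14 alone was 3.65-fold higher with OA. That of the 4 endothelial markers was 2.89, 1.85 and 1.71, the same order as for FGFRL1. Their part in the FGF results was not tested.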

How the data were processed

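Total RNA of 1 control, 1 cantharidin and 1 OA culture of PANC-1 cells was measured on 3 Agilent 1-colour arrays, grouped by sample title. The authors deposited Feature Extraction 11.0.1.1 output, where the processed intensity is background-subtracted and detrended within each array and not scaled between arrays, with flags for outliers, saturation and signal well above background (other columns were not used). The design was annotated on hg19. A second deposited table held log2 values normalized by the authors, whose making is not given in the sources used here. Its columns matched the log2 intensity of their own array with r of at least 0.998, and it served as an alternative.

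Outlier spots were left out, which kept 34041 of 34127 transcript probes, none saturated. The mean log2 processed intensity minus the array's 75th percentile was compared, with intensities of 784, 713 and 936 at that percentile. RefSeq transcripts of GRCh38.p14 named 25705 probes. A gene was represented by its brightest probe over the 3 arrays, and all probes of the 10 FGF genes are reported. The 10 genes and the 7 pathway lists were chosen with earlier results of these data known. From each list at most 4 genes were named by rule, those measured on all arrays and past 1.5-fold with at least 1 agent, by size. Genes named for disagreeing probes or after their values were seen fall outside this rule. FGF13 was not analysed here. With 1 array per group nothing was tested across arrays, and the number of arrays limits precision. Beside the main setting, 11 other settings were run (normexp background correction with an offset of 50, 4 other scalings, 2 filters on dim probes, dim signals at the array floor, the deposited table, a 2-fold threshold, the median over probes), and dim signals at their measured value were added after the data were seen. The normexp step used median spot and background intensity. The counting code was tested on simulated data. Python 3.11.15 with numpy 2.4.6, pandas 2.3.3 and matplotlib 3.10.9, and R 4.3.3 with limma 3.58.1, were used.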

Additional observations from a re-analysis of the deposited data

How the results depend on the processing

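No paired analysis was possible because each group had 1 array. Over the members and alternatives, 224 log2 differences stayed within 1 spot SD of the value reported, 45 moved by more and 0 reversed among called values. Many of the 224 could not move, so this tally does not measure robustness. The 2-fold threshold changes no difference, and the filters and dim-signal settings change none for probes well above background on all arrays. The median over probes changes none for genes with 1 probe. The count of FGF genes higher with cantharidin, 1, became 0 with normexp correction or at 2-fold, and 2 with no filter or with dim signals at their measured value. The count lower with cantharidin, 2, and the count lower with OA, 2, each became 1 with normexp correction, with signal required on all 3 arrays, and at 2-fold. With the median over a gene's probes, 3 were lower with cantharidin, FGF5 being the gene added at -0.61, a value that mixes a measured difference with a bound. The count lower with OA against cantharidin, 1, became 0 without scaling or at 2-fold, and 2 with no filter or with dim signals at their measured value. Over the pathway lists, the 14 genes higher with OA became 8 at 2-fold, and the 20 lower became 13 without scaling and 10 at 2-fold. The 18 genes higher with OA against cantharidin became 9 with normexp correction, 29 with no filter and 10 at 2-fold. Without scaling, the median over all genes moved from 0.05 to 0.30 with OA and from 0.17 to 0.56 for OA against cantharidin. The share of higher among all called genes then moved from 51.0% to 63.7% and from 59.0% to 78.9%, and with median scaling the latter was 48.9%. The cause was not tested. With 1 spot per FGF probe and 1 array per group, signals near background limit FGF1 in the control, FGF2, FGF18, FGFBP1 and FGFR4. They also limit FGF5 in the control and with cantharidin.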
